A study of Mus musculus with 7 samples.

Results

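The genes described here are 46 genes of the endoplasmic reticulum (ER) that fold, degrade and export secreted proteins, with 3 genes of the stress response among them. They were listed by symbol, and all 46 were found among the 23366 gene symbols of the deposited tables and passed the filter on low counts. RNA of mouse salivary glands was measured by bulk RNA sequencing in 7 libraries. The groups were parotid gland at postnatal day 18 (P18, 2 libraries), submandibular gland at P18 (2 libraries) and parotid gland of adults aged 12 weeks (3 libraries). The labels call each sample whole tissue, whereas the extraction protocol names epithelial cells isolated from both glands. Strain, genotype and sex are not given in the labels, no treatment is named, and adult submandibular gland was not analysed here. Whether replicates came from separate mice is not stated either, so the p-values describe the spread among these libraries, and that spread may be technical.

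Proteins bound for secretion enter the ER through the Sec61 channel as they are made, and the translocon-associated protein complex (Ssr1 to Ssr4) sits beside the channel. Inside, chaperones of the Hsp70, Hsp90 and lectin classes hold the chain while disulfide isomerases and prolyl isomerases shape it. Chains that fail to fold are drawn back to the cytosol and destroyed, a route called ER-associated degradation, and folded cargo leaves in vesicles coated with COPII. Salivary acinar cells carry a dense ER because they export large amounts of protein. When unfolded protein builds up, the sensors Ire1, Atf6 and Perk raise chaperone genes through the factors Xbp1, Atf6 and Atf4, the unfolded protein response.

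Some of these genes share a promoter element, the ER stress response element (ERSE), so its copies are shown before the values. RefSeq promoter windows (GRCm38.p6, 250 bases before to 50 after the start site) were matched for 40 of the 46 genes. ERSE was searched as CCAAT and CCACG separated by 9 bases, on both strands. It was found in 10 of the 40 windows (25%), against 37 of 27025 genes with a window (0.137%). The matches printed here come from genes whose values are described further on, with 10 bases on either side of each match and the match itself in capitals. In the last 4 of these lines the match lies on the opposite strand, so the capitals open with CGTGG and end with ATTGG.
Hspa5, chr2:34772015-34772053, plus strand: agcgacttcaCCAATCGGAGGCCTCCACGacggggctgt
Canx, chr11:50325790-50325828, minus strand: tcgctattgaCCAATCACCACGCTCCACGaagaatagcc
Dnajc3, chr14:118937817-118937855, plus strand: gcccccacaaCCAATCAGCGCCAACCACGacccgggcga
Syvn1, chr19:6046522-6046560, plus strand: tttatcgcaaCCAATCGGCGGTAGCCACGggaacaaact
Calr, chr8:84847065-84847103, minus strand: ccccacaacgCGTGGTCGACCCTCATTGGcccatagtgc
Creld2, chr15:88819510-88819548, plus strand: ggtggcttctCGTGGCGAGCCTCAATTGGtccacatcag
Ero1lb, chr13:12565672-12565710, plus strand: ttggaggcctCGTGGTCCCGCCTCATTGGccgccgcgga
Derl3, chr10:75893232-75893270, plus strand: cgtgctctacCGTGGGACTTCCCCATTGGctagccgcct

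The other windows with an ERSE match were those of Hsp90b1, with 2 matches, and Pdia6. A second form, ERSE-II (ATTGG and CCACG separated by 1 base, either strand), was found in 2 of the 40 windows (5%) and in 12 of the 27025 genes (0.0444%). Both copies are shown because Herpud1 and Dnajb11 differ between the parotid ages, higher in the adult on the scale of the tests and lower on log2(TPM + 1).
Herpud1, chr8:94386367-94386397, plus strand: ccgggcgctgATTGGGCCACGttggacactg
Dnajb11, chr16:22857842-22857872, plus strand: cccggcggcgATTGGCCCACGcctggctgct

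The motif TGACGTG, known from Xbp1 and Atf6 binding, stood in 4 of the 40 windows (10%) and in 601 of all genes with a window (2.22%). TGATGCA, known from Atf4 targets, stood in 1 window (2.5%), against 982 genes (3.63%). The whole window of Hspa5, the gene of the central chaperone BiP, is given because it held both ERSE and TGACGTG, in capitals, at chr2:34771840-34772139 on the plus strand.
Hspa5 promoter: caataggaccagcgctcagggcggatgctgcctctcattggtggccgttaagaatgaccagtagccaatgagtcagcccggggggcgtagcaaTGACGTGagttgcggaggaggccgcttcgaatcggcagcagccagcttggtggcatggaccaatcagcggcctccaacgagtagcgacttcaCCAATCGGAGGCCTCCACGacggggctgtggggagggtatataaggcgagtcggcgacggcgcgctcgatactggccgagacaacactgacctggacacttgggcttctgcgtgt

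The window of Herpud1, at chr8:94386179-94386478 on the plus strand, held ERSE-II and, on the opposite strand, TGATGCA, which reads TGCATCA here. A match is a run of letters and no measured binding site, and windows without these letters say nothing of the factors.
Herpud1 promoter: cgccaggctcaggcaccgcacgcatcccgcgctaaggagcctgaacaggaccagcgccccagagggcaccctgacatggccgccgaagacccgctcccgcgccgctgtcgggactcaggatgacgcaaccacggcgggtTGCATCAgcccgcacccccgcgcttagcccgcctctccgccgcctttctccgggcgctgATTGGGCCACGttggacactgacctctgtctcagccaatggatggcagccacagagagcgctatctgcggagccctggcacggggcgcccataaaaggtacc

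Total counts ranged from 12844534 to 28856127 per library. Smgc, a mucin-like gene of submandibular gland, went with that label, with 2983538 and 2986926 counts there against 0 to 379 in the 5 parotid libraries. Markers of other cells differed between the groups. The 10 adipocyte markers had a summed level of 3201 and 10776 CPM (read counts scaled by library size and edgeR's TMM factor) at P18 in parotid, of 26.6 and 31.1 in the submandibular libraries and of 3428 to 4006 in the adult. In submandibular gland the adipocyte gene Lep was at 0 in both libraries, and Cidec and Plin1 were at 0 in one of them. The 10 skeletal muscle markers had 2810 and 11143, 7.93 and 112, and 623 to 5571 CPM in the same order. P18 parotid replicate 2 thus had higher sums of fat and muscle markers than replicate 1, and 36 of the 46 ER genes were lower in it than in replicate 1 (median log2 difference -0.39, against -0.016 over all genes tested). In bulk tissue, fewer cells of a type and less RNA per cell cannot be told apart, and the part of these markers in the results was not tested.

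The ER genes took a larger share of RNA at P18 than in the adult parotid, and against the typical gene they were highest in submandibular gland. Their summed TPM (read counts per gene length, scaled to the same total in each library) was 7464 and 5369 at P18 in parotid, 8352 and 8610 at P18 in submandibular gland, and 2273, 2637 and 2437 in the adult. The 12 genes summed as secretory products were Amy1, Bpifa2, Prol1, Smgc, Pip, Car6, Prb1, Prpmp5, Dcpp1, Dcpp2, Lpo and Aqp5. Other secreted products were not counted, and Smgc was abundant in submandibular gland alone, so the sum rests on different genes in the 2 glands. The summed TPM of the 12 was highest in the adult, with 251401 and 67100, then 214446 and 219686, then 488476, 476807 and 493539. For each 1000 TPM of product the ER genes had 29.7 and 80.0 TPM in P18 parotid, 38.9 and 39.2 in submandibular gland and 4.65, 5.53 and 4.94 in the adult. No adult library overlapped any P18 library in either sum or in this ratio. On the TMM scale, which sets libraries against the typical gene, the summed CPM of the ER genes was 4959 ± 918 (SD, n = 2) in P18 parotid, 12338 ± 642 (SD, n = 2) in submandibular gland and 6534 ± 258 (SD, n = 3) in adult parotid. The order of the 2 parotid ages thus depends on the scale, and the tests that follow are on the TMM scale.

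**Figure D1:**
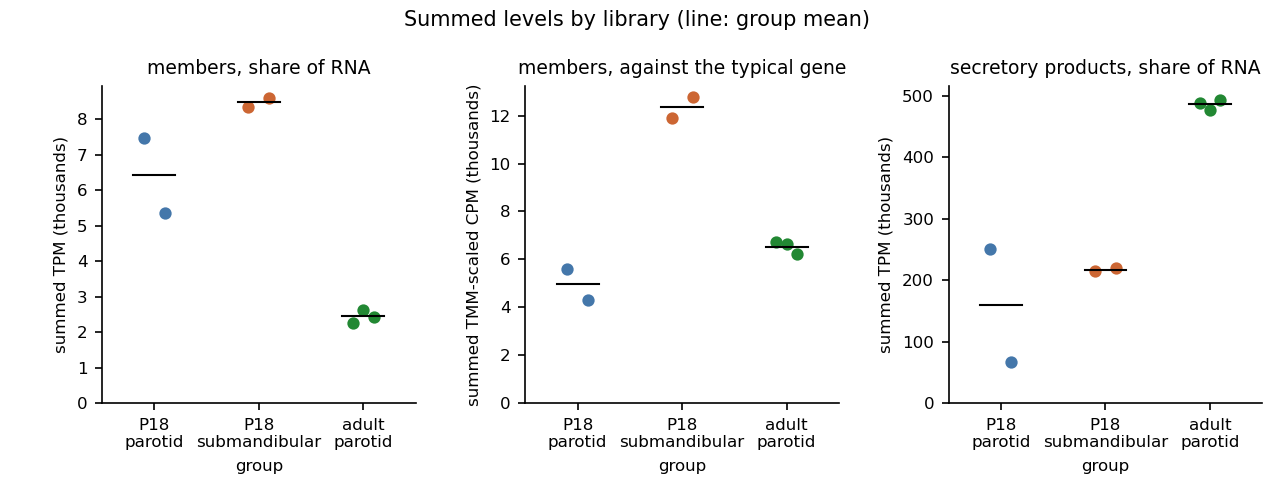
Each point is 1 library and each line a group mean, for the summed TPM of the 46 ER genes (left), their summed TMM-scaled CPM (middle) and the summed TPM of 12 secretory products (right), all in units of 1000. The ER genes lie at 2273 to 2637 TPM in adult parotid, below both P18 groups, but at 6238 to 6706 CPM, above P18 parotid and below submandibular gland.

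Levels of the ER genes were ranked per length by mean TPM. P4hb, protein disulfide isomerase, ranked 1 by mean TPM in each group, at 662 in P18 parotid, 1641 in submandibular gland and 270 in adult parotid. Calr, Hspa5 and Hsp90b1, all chaperone genes, ranked 2, 3 and 4 in both P18 groups. In the adult, Sec61b, a channel subunit, held rank 2 with 154 TPM, followed by Hspa5 with 152 and Ssr4 with 149, while Hsp90b1 had rank 5 and Calr rank 7. Herpud1, a degradation gene, moved from rank 13 in P18 parotid to rank 6 in the adult, while Canx, the membrane-bound lectin chaperone calnexin, moved from rank 8 to rank 19. By role, degradation genes made up 7.53% and 8.26% of the summed TPM in P18 parotid, 7.06% and 7.10% in submandibular gland and 11.6% to 12.2% in the adult. Export genes made up 8.17% and 10.3%, 11.0% and 11.1%, and 7.02% to 7.70% in the same order. Thus the adult libraries had the highest shares for degradation and the lowest for export, without overlap with the P18 libraries. Luminal chaperones took 31.1% and 35.2%, 26.9% and 28.2%, and 25.2% to 27.2%.

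**Figure D2:**
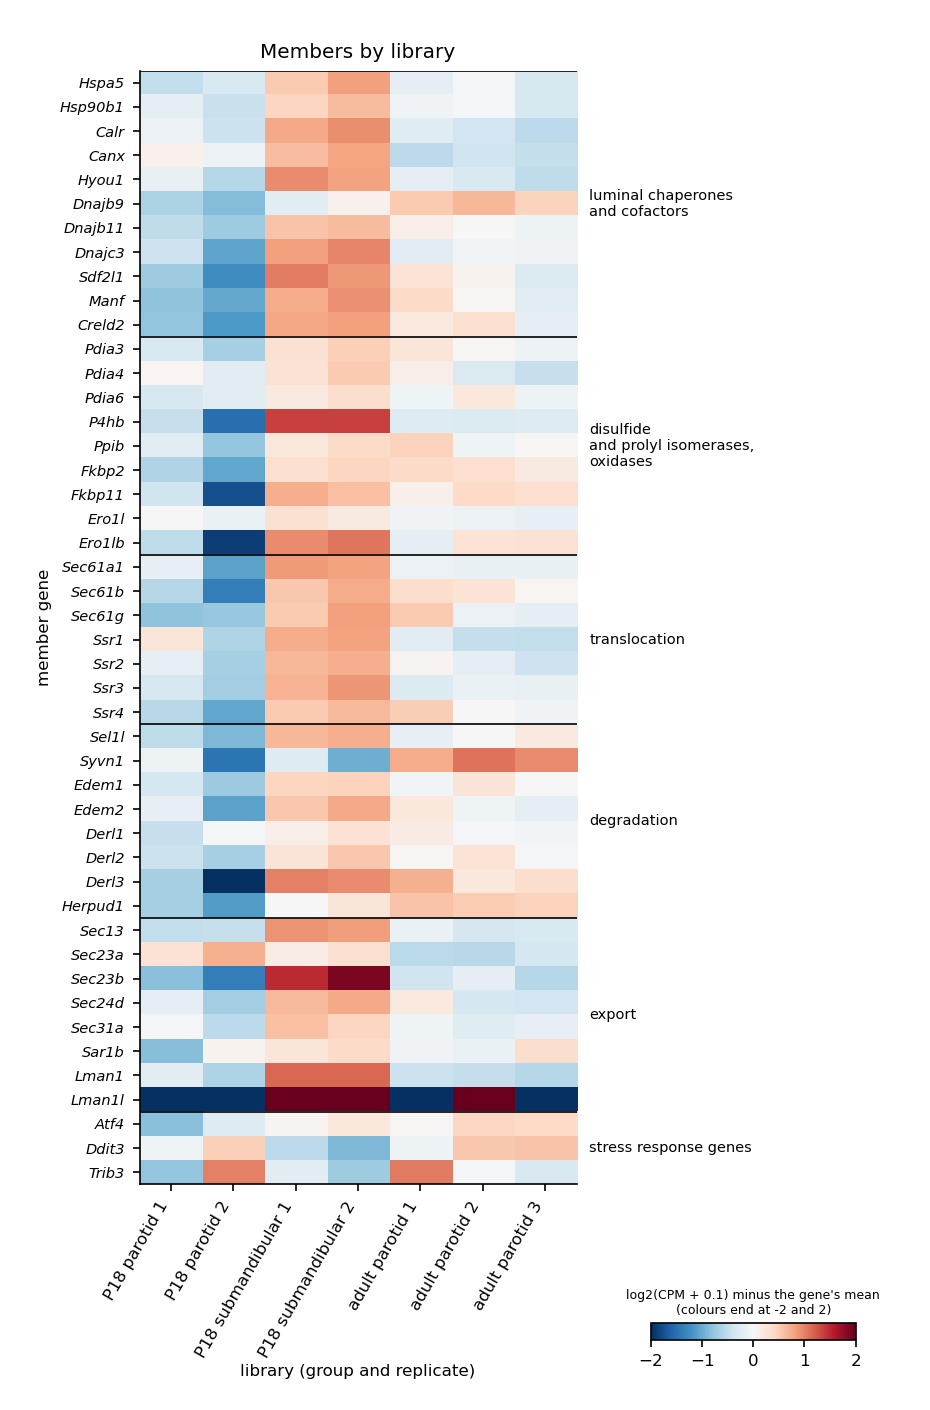
Rows are the 46 ER genes ordered by role, columns the 7 libraries, and colours log2(CPM + 0.1) minus the mean of the gene over the libraries. Most rows are highest in the 2 submandibular columns, whereas Dnajb9, Syvn1 and Herpud1 are highest in the 3 adult columns, and Lman1l is high in submandibular gland and in adult replicate 2 alone.

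The comparison of the glands at the shared age asked how submandibular gland differs from parotid at P18. Of the 46 ER genes, 32 were higher in submandibular gland and 0 were lower on the TMM scale (edgeR quasi-likelihood test, adjusted p under 0.05), where 24.4% of all 15129 genes tested passed in either direction and 10.2% were higher. At an unadjusted p under 0.05, 38 were higher and 1 lower. The DESeq2 test called 36 and 0, where it called 29.9% of all genes tested. The median log2 difference of the 46 was 1.12, against -0.069 over all genes tested. The count rests on both submandibular libraries, since most calls were lost without either, among the ER genes and among all genes alike. The lone library was then taken to vary as the remaining groups do. The median of the ER genes was 1.23 without submandibular replicate 1 and 1.07 without replicate 2. Without P18 parotid replicate 2, which had the high fat and muscle sums, this median was 0.99. On log2(TPM + 1), where the median of all genes was -0.79, limma called 9 higher and 4 lower, and the ER genes stood 0.99 above that median. Of all genes tested there, 64.1% passed, and 5.09% of those were higher. With plain library sizes 14 were higher and 2 lower, the median of all genes was -0.67 and the ER genes stood 1.17 above it. In that setting 39.4% of all genes tested passed, and 8.71% of those were higher.

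Luminal chaperones were higher for 9 of 11 genes on the TMM scale and for 3 on log2(TPM + 1), where their median of 0.28 stood 1.06 above that of all genes. Hspa5, the Hsp70 chaperone BiP, measured 387 and 440 CPM in P18 parotid and 778 and 953 in submandibular gland. Both submandibular libraries lay above both parotid libraries, a 2.09-fold difference (log2 1.07 ± 0.27 SE, edgeR adjusted p = 0.0287). Sdf2l1, which works with the BiP partner Dnajb11, measured 14.2 and 9.72 against 47.1 and 42.2 CPM, 3.74-fold (edgeR adjusted p = 0.00573). Creld2, a stress-inducible ER protein, measured 17.8 and 13.9 against 53.0 and 54.9 CPM, 3.4-fold (edgeR adjusted p = 0.00495). Neither gene had overlapping groups. Manf, a secreted protective factor that binds BiP, was 3.35-fold higher, and Dnajc3, a BiP co-chaperone, 3.03-fold. Dnajb11 and Hyou1, the latter a nucleotide exchange factor for BiP, were each 2.32-fold higher, and Calr, the lectin chaperone calreticulin, 2.17-fold. Dnajb9, a co-chaperone that steers misfolded proteins to degradation, was 1.62-fold higher on the TMM scale, but its difference on log2(TPM + 1) was -0.24. The 2 genes that missed the threshold were Hsp90b1, the ER Hsp90, at log2 0.84 ± 0.26, and Canx at 0.70 ± 0.23 (edgeR adjusted p = 0.0549 and 0.0614).

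Of the 9 isomerase and oxidase genes, 5 were higher on the TMM scale, while on log2(TPM + 1) 2 were higher and 1 lower and their median turned to -0.053, still 0.73 above that of all genes. P4hb measured 720 and 347 CPM in P18 parotid and 2561 and 2557 in submandibular gland, 4.80-fold (log2 2.26 ± 0.42, edgeR adjusted p = 0.0116). The submandibular libraries were nearly equal, while the parotid libraries differed from each other and stayed far lower. Ero1lb, an oxidase that restores the isomerases, measured 44.8 and 17.2 against 123 and 134 CPM, 4.14-fold (edgeR adjusted p = 0.0161). Fkbp11 and Fkbp2, prolyl isomerases of the FK506-binding family, were 3.02-fold and 2.27-fold higher. Pdia3, the isomerase that works with the lectin chaperones, was 1.83-fold higher, but at -0.053 on log2(TPM + 1). Pdia4 and Pdia6, other isomerases, gave log2 0.50 ± 0.24 and 0.54 ± 0.20, Ppib, a cyclophilin, 0.78 ± 0.26, and Ero1l, the second oxidase, 0.30 ± 0.16, none of them past the threshold.

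Translocation genes were higher for 6 of 7 on the TMM scale and for 2 with plain library sizes. On log2(TPM + 1) limma called 0 of the 7 in either direction (1 higher at an unadjusted p under 0.05), with a median of 0.44 that stood 1.23 above that of all genes. The subunits of the Sec61 channel stood together, with Sec61b 2.97-fold, Sec61g 2.75-fold and Sec61a1 2.60-fold higher (edgeR adjusted p = 0.0115, 0.0122 and 0.0214). Sec61b measured 59.0 and 33.7 CPM in P18 parotid and 128 and 147 in submandibular gland, without overlap. Of the translocon-associated complex, Ssr4, Ssr3 and Ssr2 were 2.56-fold, 2.45-fold and 2.13-fold higher. Ssr1 measured 213 and 120 against 302 and 315 CPM and missed the threshold (log2 0.89 ± 0.30, edgeR adjusted p = 0.0686).

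Degradation genes were higher for 6 of 8 on the TMM scale, while on log2(TPM + 1) 1 was higher and 1 lower, with a median of 0.070. Derl3, one of the derlins that help to move chains out of the ER, measured 37.2 and 9.99 CPM in P18 parotid and 118 and 114 in submandibular gland. The groups did not overlap, though the parotid libraries were far apart, and the difference was 4.92-fold (log2 2.30 ± 0.54, edgeR adjusted p = 0.0231). Sel1l, the adaptor of the ubiquitin ligase Hrd1, was 2.61-fold higher. Its partner Syvn1, the gene of Hrd1 itself, measured 38.1 and 14.7 against 34.2 and 20.7 CPM, so that the submandibular libraries lay between the parotid ones (log2 0.058 ± 0.44, edgeR adjusted p = 0.939). Edem2 and Edem1, which trim mannose from proteins to be degraded, were 2.30-fold and 1.98-fold higher. Herpud1, a scaffold of the Hrd1 complex, was 2.0-fold and Derl2 1.92-fold higher, while Derl1 gave log2 0.45 ± 0.21, short of the threshold.

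Export genes were higher for 6 of 8 on the TMM scale, while on log2(TPM + 1) 3 were higher and 1 lower, with a median of 0.31. They held the gene that passed under most alternatives. Sec23b, a subunit of the inner COPII coat, measured 54.9 and 37.8 CPM in P18 parotid and 276 and 364 in submandibular gland. The groups lay far apart, a 6.91-fold difference (log2 2.79 ± 0.29, edgeR adjusted p = 0.00305). It was past the threshold in all 18 alternatives tried, and of the 32 genes called here it alone was past it in each of the 7 fits that left out a library. Lman1, a lectin receptor that carries glycoproteins out of the ER, was 2.91-fold higher. Sec13, of the outer coat, was 2.54-fold and Sec24d, of the inner coat, 2.18-fold higher. Sec31a, also of the outer coat, was 1.70-fold higher (edgeR adjusted p = 0.0495) but at -0.14 on log2(TPM + 1). Sec23a, the close relative of Sec23b, gave log2 -0.29 ± 0.20, and Sar1b, the GTPase that starts the coat, 0.64 ± 0.32, both short of the threshold.

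Lman1l, a relative of Lman1, was nearly absent from parotid. It had 2 and 0 counts in P18 parotid, 2825 and 2566 in submandibular gland, and 1, 392 and 2 in adult parotid. After scaling for depth, submandibular gland was 3913 times P18 parotid (95% interval 1083 to 32321, counting error only; edgeR adjusted p = 0.0285). Adult replicate 2 stood apart from the other adult libraries by 257 times (87.3 to 1252). The same library held Smgc and 3 other genes that were nearly silent in the other adult libraries, so the level of Lman1l in adult parotid cannot be given as a group mean. Against adult replicates 1 and 3, submandibular gland was 1819 times higher (622 to 8825).

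The 3 stress response genes did not pass the threshold between the glands. Atf4, the factor of the Perk branch, measured 84.3 and 127 CPM in P18 parotid and 157 and 174 in submandibular gland (log2 0.65 ± 0.27, edgeR adjusted p = 0.118). Ddit3, the gene of the death-linked factor CHOP, measured 7.31 and 10.8 against 5.39 and 4.10 CPM (log2 -0.93 ± 0.34, edgeR adjusted p = 0.0870). Its groups did not overlap, and its sign was opposite to that of most chaperones. Trib3, a pseudokinase gene downstream of both factors, lay at 1.32 and 4.84 against 2.01 and 1.39 CPM, within the parotid range.

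**Figure D3:**
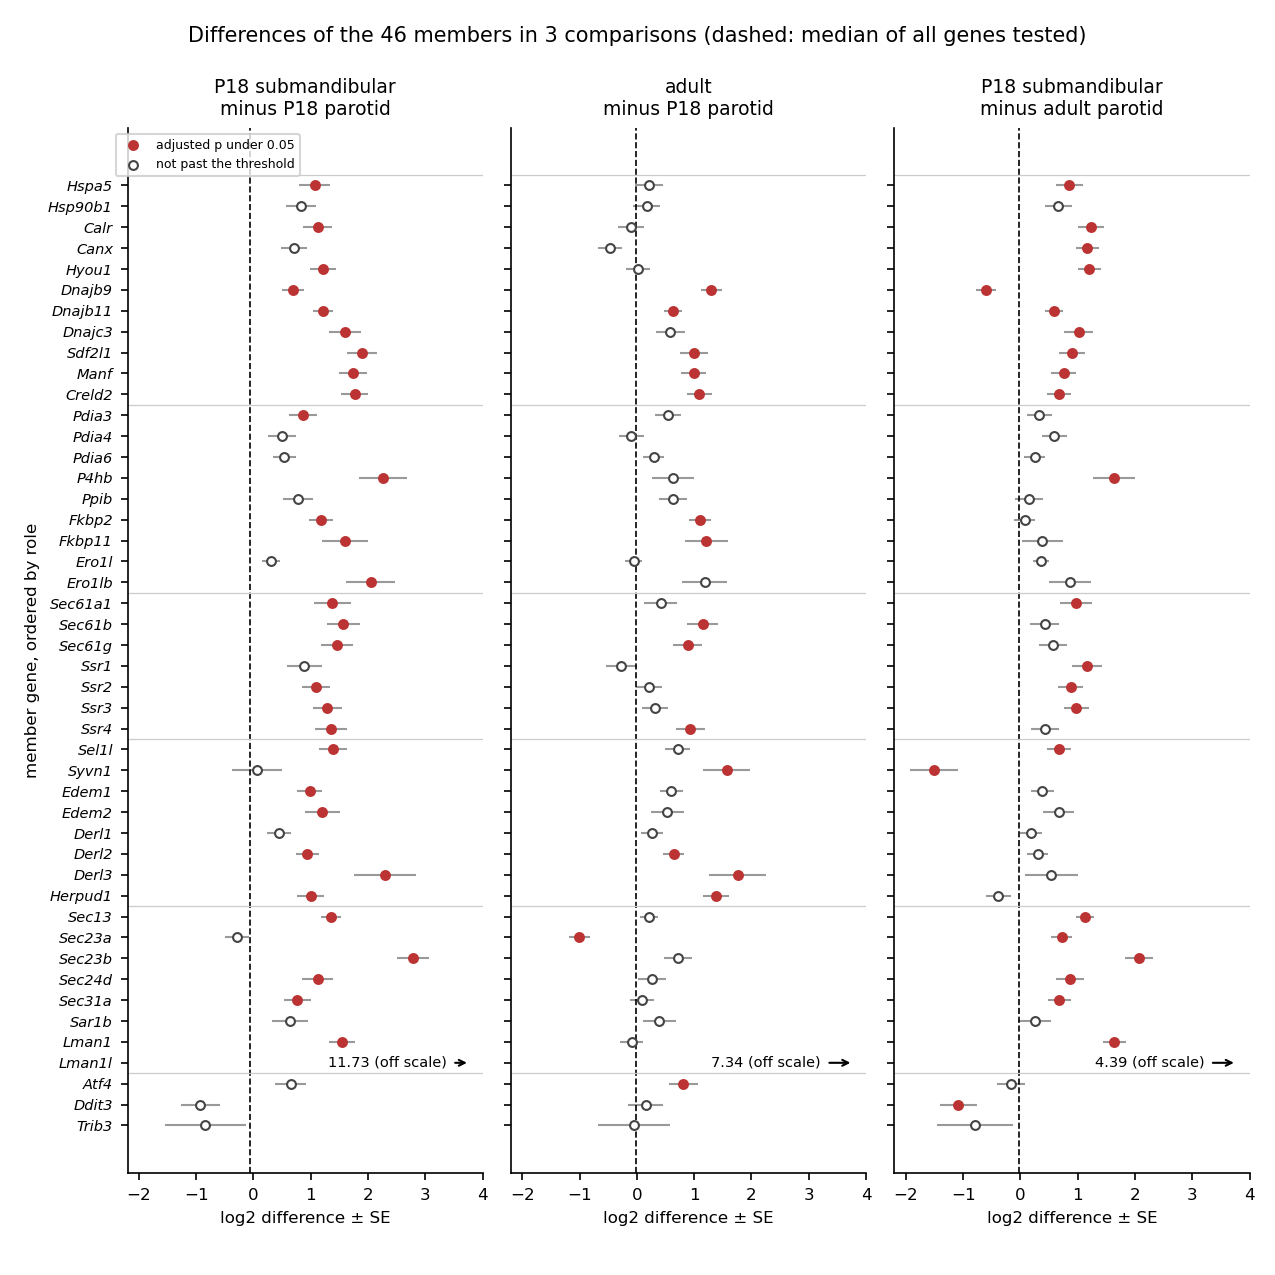
For each ER gene, ordered by role, the point is the edgeR log2 difference and the bar its standard error in the 3 comparisons; filled points passed the adjusted p threshold of 0.05, and the dashed line is the median of all genes tested. Filled points lie to the right for 32, 15 and 21 genes and to the left for 0, 1 and 3; the 15 in the middle panel hold on the TMM scale, and 14 of them turn sign on log2(TPM + 1).

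The comparison of ages within parotid set the adult libraries against P18. On the TMM scale 15 of the 46 ER genes were higher in the adult and 1, Sec23a, was lower, where 25.9% of all genes tested passed in either direction and 10.7% were higher. The median log2 difference was 0.56, against -0.0080 over all genes. The direction belongs to that scale. On log2(TPM + 1), 14 of the 15 had the opposite sign and limma called 39 of the 46 lower. Of all genes tested there, 86.3% passed and only 0.689% of those were higher, so most genes were lower too. The median over all genes was -1.48, so the ER genes stood 0.22 above it. With plain library sizes 11 of the 15 changed sign, the median over all genes was -1.24 and the ER genes stood 0.55 above it. The count of 15 fell to 3 without adult replicate 2, 6 without adult replicate 1 and 7 without adult replicate 3. In these fits 8.68%, 20.9% and 12.4% of all genes tested passed, against 25.9% with all libraries. The submandibular libraries enter this comparison only through the shared fit. Without either of them fewer genes passed too, among the ER genes and among all genes alike. The median of the ER genes was 0.60 without submandibular replicate 1 and 0.57 without replicate 2. It was 0.80 without P18 parotid replicate 1.

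Dnajb9, Herpud1 and Fkbp2 were the genes past the threshold in each of the 7 fits that left out a library. Dnajb9 measured 26.4 and 22.4 CPM in P18 parotid and 59.2, 65.0 and 56.2 in the adult. All adult libraries lay above both P18 libraries, a 2.46-fold difference on the TMM scale (log2 1.3 ± 0.18, edgeR adjusted p = 0.00495), with -0.59 on log2(TPM + 1). Herpud1 measured 130 and 94.9 against 306, 294 and 284 CPM, 2.62-fold (log2 1.39 ± 0.23, edgeR adjusted p = 0.00775), with -0.50 on log2(TPM + 1). Fkbp2 was 2.15-fold higher (edgeR adjusted p = 0.00918), with -0.78 on log2(TPM + 1). Syvn1, whose difference between the glands at P18 was within its error, measured 38.1 and 14.7 against 68.5, 87.0 and 78.6 CPM, again without overlap (2.96-fold, edgeR adjusted p = 0.0328, -0.19 on log2(TPM + 1)). Degradation was thus higher for 4 of 8 genes, the others being Derl3 (3.38-fold) and Derl2 (1.56-fold, -1.17 on log2(TPM + 1)).

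Of the chaperones, 5 of 11 were higher in the adult on the TMM scale, and all 5 turned sign on log2(TPM + 1). Beside Dnajb9 they were Creld2 (2.13-fold), Sdf2l1 and Manf (both 1.99-fold) and Dnajb11 (1.55-fold). The abundant chaperones were not among them. Hspa5 measured 475, 528 and 433 CPM in the adult against 387 and 440 at P18, and the ranges overlapped (log2 0.21 ± 0.24, edgeR adjusted p = 0.540). Hsp90b1 gave log2 0.17 ± 0.24, Calr -0.11 ± 0.23, Hyou1 0.012 ± 0.21 and Canx -0.47 ± 0.20, none past the threshold. Translocation was higher for 3 of 7 on the TMM scale, with Sec61b 2.21-fold, Ssr4 1.91-fold and Sec61g 1.85-fold, all of the opposite sign on log2(TPM + 1). Among isomerases Fkbp11 (2.31-fold, edgeR adjusted p = 0.0498) joined Fkbp2, with -0.54 on log2(TPM + 1).

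The export genes did not follow. Sec23a measured 35.4 and 47.4 CPM at P18 and 19.8, 19.5 and 22.5 in the adult. Every adult library lay below both P18 libraries, and the log2 difference was -1.0 ± 0.18 (edgeR adjusted p = 0.0108, and 0.0533 without adult replicate 2). Sec23b gave log2 0.71 ± 0.25 (edgeR adjusted p = 0.0719), and Sec13, Sec24d, Sec31a, Sar1b and Lman1 lay between -0.093 and 0.39, all short of the threshold. Of the stress response genes Atf4 was 1.75-fold higher (153, 202 and 199 CPM, edgeR adjusted p = 0.0499) on the TMM scale, with -1.07 on log2(TPM + 1). Ddit3 and Trib3 gave log2 0.15 ± 0.30 and -0.053 ± 0.63.

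Markers of several other cells differed beside these genes. The 7 macrophage markers had summed levels of 166 and 226 CPM at P18 in parotid, of 89.6 and 103 in the submandibular libraries and of 386 to 522 in the adult. Of these 7, 5 were higher in adult than in P18 parotid, and 5 were lower in submandibular gland than in P18 parotid. The 8 endothelial markers had 373 and 818, 124 and 114, and 236 to 293 CPM in the same order, with 4 lower in the adult and 7 lower in submandibular gland against P18 parotid. Plasma cells are secretory cells that also use Derl3, Fkbp11, Herpud1, Creld2 and Sdf2l1. The 8 B and plasma cell markers in the tables had summed levels of 111 and 28.7 CPM at P18 in parotid, of 32.3 and 34.1 in the submandibular libraries and of 747, 355 and 234 in the adult, and 3 of the 7 tested were higher in the adult than at P18. In submandibular gland Ms4a1 was at 0 in both libraries, Cd79a, Mzb1 and Tnfrsf17 were at 0 in one, and most of the sum was Sdc1 (32.5 CPM), which epithelia also express. In the adult libraries, in the same order as the marker sum, Herpud1 measured 306, 294 and 284 CPM, Derl3 96.6, 68.0 and 75.0, Dnajb9 59.2, 65.0 and 56.2, and Fkbp11 47.1, 58.1 and 55.4. Creld2 measured 35.4, 38.7 and 27.4 CPM there and Sdf2l1 27.9, 24.4 and 19.3. In P18 parotid Derl3 (37.2 and 9.99 CPM) and Fkbp11 (33.4 and 12.9 CPM) were lower in the library with the lower marker sum. That was not particular to these genes, since 36 of the 46 ER genes and 11 of 12 secretory products were lower in it. The part of these cells in the differences was not tested.

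**Figure D4:**
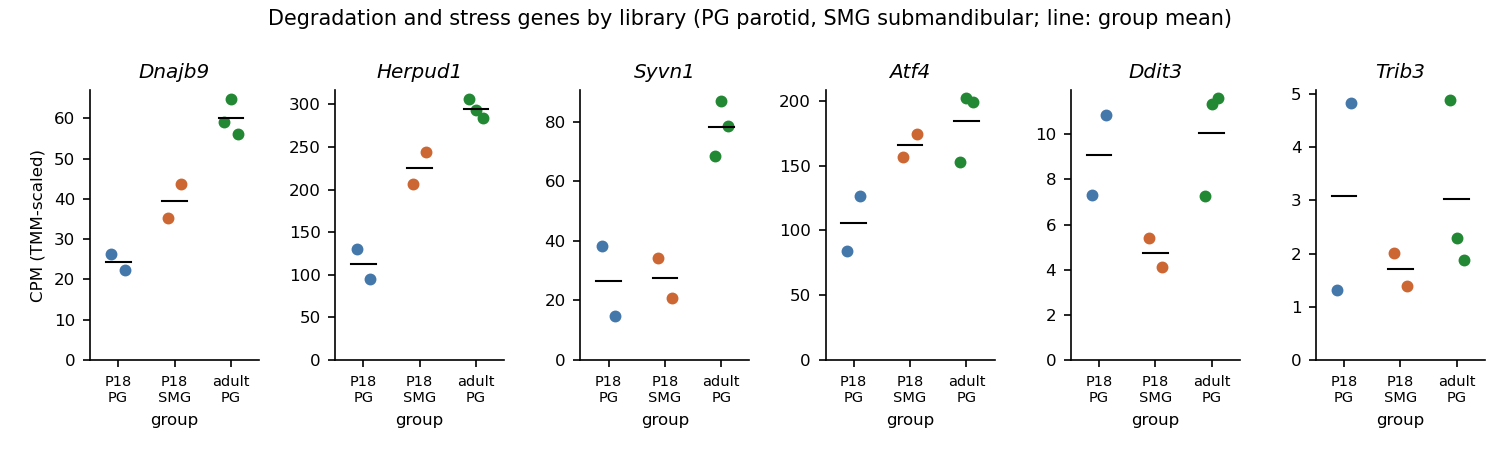
CPM on the TMM scale by group, with 1 point per library and a line at the group mean, for 3 degradation-linked genes and the 3 stress response genes; PG is parotid and SMG submandibular gland. Dnajb9, Herpud1 and Syvn1 are highest in the adult libraries (56.2 to 65.0, 284 to 306 and 68.5 to 87.0 CPM), an order that turns on log2(TPM + 1) against P18 parotid, whereas Ddit3 is lowest in submandibular gland (4.10 and 5.39 CPM).

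Submandibular gland at P18 was also set against adult parotid, a comparison in which gland and age both differ and in which the uneven P18 parotid libraries enter only through the shared fit. It shares libraries with the other comparisons, so its values are given beside theirs and not as a separate test of them. Here 21 of the 46 ER genes were higher in submandibular gland and 3 were lower, where 39.2% of all genes tested passed, 19.4% higher and 19.8% lower. The median log2 difference was 0.66, against -0.019 over all genes. The count of 21 was 8 without adult replicate 2 and 10 without adult replicate 3, where 25.4% and 28.0% of all genes tested passed. Fewer genes passed too without submandibular replicate 1 or 2, among the ER genes and among all genes alike. The median of the ER genes was then 0.70 and 0.56. On log2(TPM + 1) limma called 41 higher, with a median over all genes of 0.69. Of all genes tested there, 60.3% passed, and 88.7% of those were higher.

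Chaperones and export genes made up most of the list, with 9 of 11 and 6 of 8 higher. Sec23b measured 276 and 364 CPM against 74.9, 86.8 and 66.3 in adult parotid, 4.21-fold (log2 2.07 ± 0.24, edgeR adjusted p = 0.00132). Lman1 measured 420 and 417 against 141, 135 and 128 CPM, 3.11-fold (edgeR adjusted p = 0.00153). Sec13 was 2.19-fold higher (edgeR adjusted p = 0.00219) and Hyou1 2.30-fold (edgeR adjusted p = 0.00473). These 4 genes kept their calls in all 18 alternatives, and in none of them did the groups overlap. Sec23a was 1.65-fold, Sec24d 1.81-fold and Sec31a 1.60-fold higher. Of the abundant chaperones Calr was 2.34-fold, Canx 2.25-fold and Hspa5 1.81-fold higher, and P4hb was 3.11-fold higher, the only isomerase past the threshold. Translocation was higher for 4 of 7, with Ssr1 2.24-fold, Ssr3 1.97-fold, Sec61a1 1.95-fold and Ssr2 1.83-fold.

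The 3 genes lower in submandibular gland than in adult parotid were Syvn1, Dnajb9 and Ddit3. Syvn1 measured 34.2 and 20.7 CPM against 68.5, 87.0 and 78.6, and its log2 difference was -1.51 ± 0.42 (edgeR adjusted p = 0.0258). Ddit3 gave -1.09 ± 0.32 (edgeR adjusted p = 0.0317), with 5.39 and 4.10 against 7.25, 11.3 and 11.6 CPM. Dnajb9 gave -0.61 ± 0.18 (edgeR adjusted p = 0.0304), which became 0.35 on log2(TPM + 1) and 0.020 with plain library sizes. For all 3 the call was lost without either submandibular library. In the degradation group only Sel1l was higher (1.60-fold), while its partner Syvn1 was lower. These partners thus differed from adult parotid in opposite directions on the TMM scale. Herpud1 gave log2 -0.39 ± 0.22 and Derl3 0.54 ± 0.47, both short of the threshold.

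Pairs of related genes were compared within each library, since their ratio does not depend on scaling between libraries. The ratio of Sec23b to Sec23a in TPM was 2.19 and 1.12 in P18 parotid, 12.2 and 14.3 in submandibular gland and 5.34, 6.26 and 4.15 in adult parotid. The 3 groups did not overlap, and the ratio was 8.41-fold higher in submandibular gland than in P18 parotid (two-sided exact permutation p = 0.333, the smallest that 2 against 2 libraries allow). It was 3.30-fold higher in adult than in P18 parotid and 2.55-fold higher in submandibular gland than in the adult (exact permutation p = 0.1 each, the smallest that 2 against 3 libraries allow). Across the 13 ratio comparisons made, adjusted exact p-values lay between 0.260 and 0.400, so the design could not reach 0.05.

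The other pairs had wider parotid values. Ero1lb to Ero1l was 1.14 and 0.475 in P18 parotid, 2.54 and 2.99 in submandibular gland and 1.49, 2.11 and 2.21 in the adult. Derl3 to Derl2 was 4.05 and 1.28, then 8.01 and 6.38, then 7.66, 4.54 and 6.21, so that submandibular gland and adult parotid overlapped while P18 parotid lay below both. Derl3 to Derl1 was 1.27 and 0.256, then 2.69 and 2.31, then 2.15, 1.72 and 1.94, without overlap between any of the groups. Lman1l to Lman1 was 0.851 and 0.963 in submandibular gland, where both genes had similar TPM. It was 0.00118 and 0 in P18 parotid and 0.00149, 0.394 and 0.00161 in the adult.

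**Figure D5:**
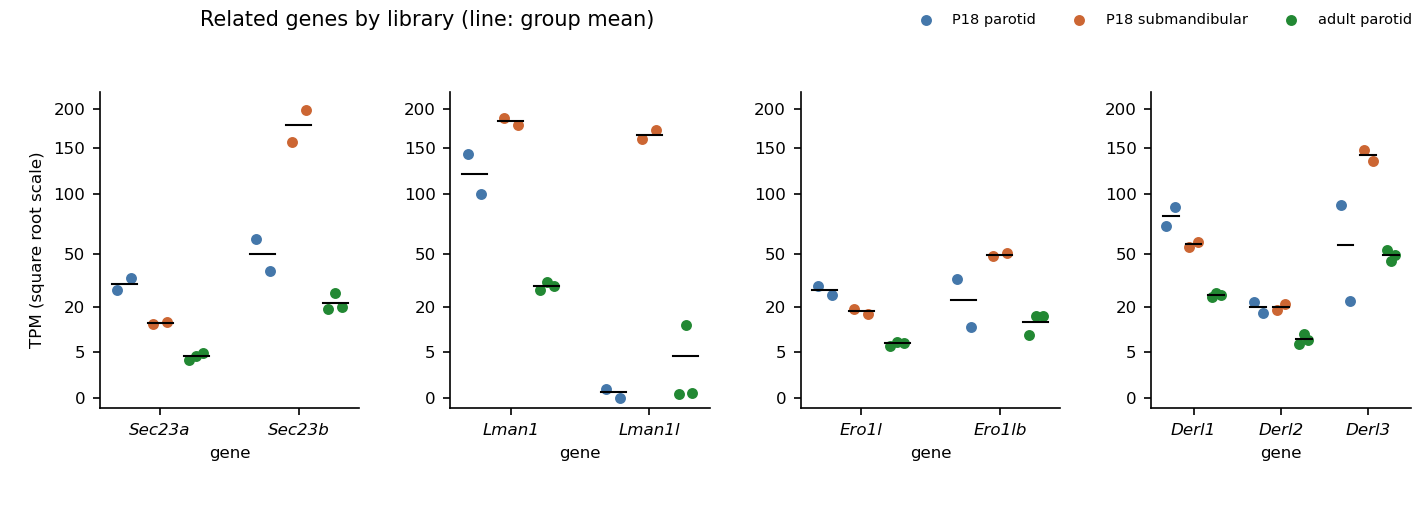
TPM on a square root axis for related ER genes, with 1 point per library and a line at the group mean. Sec23b exceeds Sec23a most in submandibular gland (12.2 and 14.3 times), Lman1l stands beside Lman1 only there apart from adult replicate 2, and Ero1lb and Derl3 are uneven between the 2 P18 parotid libraries.

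Other genes of the same routes were counted from 9 lists. On the TMM scale, genes of the steps before and after folding were also higher in submandibular gland than in parotid at P18. Of all genes tested, 10.2% were higher and 14.2% lower in that comparison. COPI genes, whose coat returns material from the Golgi to the ER, were higher in submandibular gland for 8 of 9, with Copb2 2.80-fold. Oligosaccharyltransferase genes, which add sugar chains as proteins enter, were higher for 10 of 12 (Ostc 2.55-fold, Krtcap2 2.51-fold). Signal recognition particle, signal peptidase and other translocation genes were higher for 14 of 20, with Spcs1, a signal peptidase subunit, 2.49-fold and Srprb, of the recognition particle's receptor, 2.52-fold. The median log2 differences of these lists were 0.93, 0.92 and 1.10, against -0.069 over all genes tested. On log2(TPM + 1) the medians were 0.0012, 0.020 and 0.17, which stood 0.79, 0.81 and 0.96 above that of all genes. Of the 9 COPI genes limma called 0 in either direction there, and 2 were higher with plain library sizes. Other COPII and cargo genes were higher for 16 of 30, Ergic1 by 3.83-fold and the retrieval receptor Kdelr3 by 3.11-fold, while Sec31b was lower (log2 -2.04 ± 0.54), with a list median of 0.77 that turned to -0.15 on log2(TPM + 1).

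Other chaperones and folding enzymes were higher for 12 of 30 and lower for 1 on the TMM scale, and their median of 0.34 turned to -0.45 on log2(TPM + 1). Agr2, a disulfide isomerase needed for mucin production, had a mean of 88.0 ± 9.91 CPM (SD, n = 2) in submandibular gland, 0.203 ± 0.0975 (SD, n = 2) in P18 parotid and 0.559 ± 0.684 (SD, n = 3) in adult parotid, so it was nearly absent from both parotid groups. Txndc5, another isomerase, was 3.39-fold higher, and Ppic, a cyclophilin, was lower (log2 -1.51 ± 0.39). Other degradation genes were higher for 8 of 20, with Edem3 2.92-fold and Vimp 2.76-fold, and their median of 0.48 turned to -0.43 on log2(TPM + 1). Of the sensors and their factors, 4 of 13 were higher, among them Creb3l4, a membrane-bound factor, 15.7-fold, and Eif2ak3, the gene of Perk, 3.18-fold. Cytosolic chaperones, which serve proteins that do not enter the ER, were higher for 1 of 20, Cct7 (1.57-fold, but -0.28 on log2(TPM + 1)), with a list median of 0.12 that turned to -0.79 there.

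Integrated stress response targets, genes that Atf4 drives in many cells, did not go one way between the glands on the TMM scale. Of 16, 2 were higher in submandibular gland (Nupr1 5.03-fold, Asns 2.86-fold) and 4 were lower, among them Vldlr (log2 -2.66 ± 0.45) and Slc7a11 (-4.17 ± 0.86), and the median was -0.17. There 10.2% of all genes tested were higher and 14.2% lower. On log2(TPM + 1) limma called 1 higher and 9 lower, where 64.1% of all genes tested passed and 5.09% of those were higher. In adult against P18 parotid 6 of the 16 were higher and 1 lower on the TMM scale (1 and 12 on log2(TPM + 1)). Of all genes tested, 10.7% were higher and 15.1% lower on the TMM scale. On log2(TPM + 1) 86.3% passed, and 0.689% of those were higher. Nupr1 was 9.89-fold and Slc3a2, an amino acid transporter subunit, 3.58-fold higher on the TMM scale, Slc3a2 being at -0.069 on log2(TPM + 1). Against adult parotid 6 of the 16 were lower in submandibular gland on the TMM scale, where 19.8% of all genes tested were lower. They included Shmt2, a mitochondrial enzyme of serine use (log2 -1.57 ± 0.20), and Slc3a2 (-1.33 ± 0.18). The list median was -1.07, or -0.053 on log2(TPM + 1). On the latter scale limma called 4 of the 16 higher and 0 lower. There 60.3% of all genes tested passed, and 88.7% of those were higher.

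Xbp1, the factor of the Ire1 branch, needed by many secretory cells, had a mean of 140 ± 40.1 CPM (SD, n = 2) in P18 parotid, 335 ± 58.1 (SD, n = 2) in submandibular gland and 406 ± 8.26 (SD, n = 3) in the adult. It was 2.90-fold higher in adult than in P18 parotid (edgeR adjusted p = 0.00902), but at -0.34 on log2(TPM + 1). Atf6b, a relative of the sensor gene Atf6, was 2.11-fold higher in the adult (-0.76 on log2(TPM + 1)), and its log2 difference between submandibular gland and adult parotid was -0.81 ± 0.17 (0.15 on log2(TPM + 1)). Rnf5, a ubiquitin ligase of ER degradation, was 3.28-fold higher in the adult than at P18 (-0.19 on log2(TPM + 1)). Translocation genes outside the ER genes were higher in the adult for 10 of 20 and other COPII genes for 8 of 30 on the TMM scale. There 10.7% of all genes tested were higher. On log2(TPM + 1) 17 and 29 of them were lower, where 86.3% of all genes tested passed and only 0.689% of those were higher.

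Counts of genes with and without an ERSE match are given side by side. Between the glands at P18, 6 of the 10 with a match were higher, with a median log2 difference of 1.09, and 21 of the 30 without one, with a median of 1.06. Of all genes tested, 10.2% were higher there. In adult against P18 parotid the counts were 3 of 10 and 11 of 30, with medians of 0.44 and 0.63, where 10.7% of all genes tested were higher. Lower were 0 with a match and 1 without. In submandibular gland against adult parotid the counts higher were 5 of 10 and 11 of 30, with medians of 0.76 and 0.50. Of all genes tested, 19.4% were higher, and among the ER genes 1 with a match and 2 without were lower. Genes with the element varied among themselves, as with Syvn1 (log2 0.058 ± 0.44, not past the threshold) and Derl3 (2.30 ± 0.54) between the glands at P18.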

How the data were processed

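Per the labels' protocols, 1 µg of total RNA per sample went into an Illumina TruSeq library. The authors deposited raw counts per gene symbol and TPM, in which a count is divided by gene length and scaled to the same sum in each library. The submitters' processing notes name build mm9 and the tools DESeq2 1.20.0, featureCounts 1.5.1, Bowtie2 2.2.6 and TopHat2 2.1.1. The strand setting and the treatment of reads shared by related genes are not given in sources used here, so closely related pairs such as Sec23a and Sec23b could exchange reads. The deposited files each hold 2 further columns that matched no label and were not used.

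The 46 genes, the 9 pathway lists, the cell markers and the tests were chosen with earlier results of these data known. Genes are named where they passed the threshold or led their role by TPM, and from each pathway list by smallest adjusted p (2 per direction). The 5 genes of adult replicate 2 were chosen after their values were seen. Of 23366 genes, 15129 passed edgeR's filter (minimum count 10, total 15). Tests used edgeR 4.0.16 in R 4.3.3 (quasi-likelihood, TMM, all 7 libraries in a fit with 4 residual degrees of freedom, Benjamini-Hochberg adjustment over all genes tested, threshold 0.05), after the scripts were tested on simulated data. Standard errors were derived from the F statistic. Alternatives used DESeq2 1.42.0, limma 3.58.1 on log2(TPM + 1) and log2(TPM + 0.1), other scalings, no filter, and each library left out. Ratios of related genes used two-sided exact permutation tests. Promoter windows came from RefSeq (GRCm38.p6), matched by symbol for 40 of 46 genes, and no mm9 coordinate was used. Intervals cover counting error at 95% only.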

Additional observations from a re-analysis of the deposited data

How the results depend on the processing

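Whether replicate numbers pair the libraries is not stated in the labels, and the tests did not pair them. The differences between replicates 2 and 1 correlated at 0.24 between P18 parotid and P18 submandibular gland. They correlated at 0.060 between P18 and adult parotid and at -0.019 between submandibular gland and adult parotid. These correlations cannot settle whether mice were shared. Few of the ER genes called in the 3 comparisons stayed past the threshold in each of the 7 fits without a library. DESeq2 size factors and removal of the 50 most abundant genes kept every count of ER genes within 1.5 times its value. For submandibular gland against P18 parotid, the counts higher and lower (32 and 0) became 14 and 2 with plain library sizes, 11 higher with only the compared groups in the fit, 9 and 4 on log2(TPM + 1), 9 and 3 on log2(TPM + 0.1) and 8 and 4 on log2(TPM + 1) without a filter. For adult against P18 parotid (15 and 1) they became 0 and 25 with plain library sizes, 4 higher with only the compared groups, 6 higher with a replicate block, and 0 and 39 on all 3 TPM settings. There the DESeq2 test gave 2 lower, and a fit without both P18 parotid 2 and adult 1 gave 3 lower. For submandibular gland against adult parotid (21 and 3) they became 38 and 0 with plain library sizes, 7 and 1 with a replicate block, 41 and 0 on log2(TPM + 1) and log2(TPM + 0.1), 40 and 0 without a filter, and 33 higher without both P18 parotid 2 and adult 1. With the replicate block the first comparison gave 25 higher. Leaving out each library in turn gave 1 to 35 higher and 0 to 1 lower in the first comparison, 3 to 23 and 0 to 1 in the second, and 4 to 28 and 0 to 3 in the third. The ratio differences of related genes kept their sign under every setting.

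Signs turned with the scale, as the changed scaling itself moves the median of all genes. Of all genes called, 41.7%, 41.5% and 49.4% were higher in the 3 comparisons, against 8.71%, 1.52% and 79.8% with plain library sizes and 5.09%, 0.689% and 88.7% on log2(TPM + 1). The genes called were 24.4%, 25.9% and 39.2% of those tested. With plain library sizes they were 39.4%, 72.4% and 54.3%, and on log2(TPM + 1) 64.1%, 86.3% and 60.3%. On log2(TPM + 1), whether filtered or not, and on log2(TPM + 0.1), adult minus P18 parotid became -1.07 and -1.08 for Atf4, -0.76 and -0.82 for Atf6b, -0.79 and -0.82 for Creld2, -1.17 and -1.26 for Derl2, -1.22 and -1.27 for Dnajb11, and -0.59 and -0.60 for Dnajb9. It became -0.54 and -0.55 for Fkbp11, -0.78 and -0.79 for Fkbp2, -0.50 on both for Herpud1, -0.91 and -0.93 for Manf, -0.19 and -0.20 for Rnf5, and -0.87 and -0.90 for Sdf2l1. It became -0.71 on both for Sec61b, -1.05 and -1.06 for Sec61g, -0.069 and -0.070 for Slc3a2, -0.97 and -0.98 for Ssr4, -0.19 on both for Syvn1 and -0.34 on both for Xbp1. With plain library sizes it became -0.41 for Atf4, -0.17 for Atf6b, -0.16 for Creld2, -0.60 for Derl2, -0.62 for Dnajb11, -0.055 for Fkbp11, -0.15 for Fkbp2, -0.27 for Manf and Sdf2l1, -0.12 for Sec61b, -0.37 for Sec61g and -0.33 for Ssr4. Submandibular minus adult parotid became 0.15 and 0.16 for Atf6b and 0.35 and 0.36 for Dnajb9 on the TPM scales, and 0.020 for Dnajb9 with plain library sizes. Submandibular minus P18 parotid became -0.28 on both for Cct7, -0.24 on both for Dnajb9, -0.053 on both for Pdia3, and -0.14 and -0.15 for Sec31a. Among the ER genes counts were lowest for Lman1l in parotid and for Trib3, where depth limits the precision.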

Other observations

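The library of adult parotid replicate 2 held 5 genes with at least 100 counts that had at most 3 in each of the other adult libraries. They were Muc19, a gel-forming salivary mucin gene (3421 counts), Lman1l (392), Smgc (379), the serpin gene Serpinb11 (181) and B3gnt6, a glycosyltransferase gene of mucin-type sugar chains (122). In submandibular gland at P18 the same genes had 136 and 51 counts for Muc19, 2825 and 2566 for Lman1l, 2983538 and 2986926 for Smgc, 15 and 24 for Serpinb11, and 3 and 3 for B3gnt6. The ratio of Lman1l to Smgc was therefore far higher in adult replicate 2 than in the submandibular libraries, and Muc19 exceeded both submandibular libraries. These genes were chosen after their values were seen, and the source of this RNA was not tested.

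Within P18 parotid most roles of the ER genes differed between the replicates. In replicate 2 against replicate 1, 10 of 11 luminal chaperones, 8 of 9 isomerases and oxidases, 6 of 7 translocation genes and 7 of 8 degradation genes were lower, while the 3 stress response genes were higher. Of all 15129 genes tested, 7735 were lower and 7367 higher. Export genes were lower for 5 of 8, near the share over all genes. Secretory products were lower for 11 of 12 (median log2 difference -1.59), and cytosolic chaperones were higher for 19 of 20 (median 0.46).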
